A study of Bos taurus with 44 samples.

Results

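The genes described here are 8 genes of tumour necrosis factor signalling and cell survival: LTB, TNFRSF1A, TNFRSF1B, ADAM17, FAS, FASLG, BCL2 and BCL2L1. They were taken as the spots for which the platform annotation gives 1 of these symbols alone, which were 64 of the 1680 spots on the array and 8 of its 141 named genes. Each gene had 8 spots. The Entrez identifiers are 529757 for LTB, 282527 for TNFRSF1A, 338033 for TNFRSF1B, 517541 for ADAM17, 282488 for FAS, 407111 for FASLG, 281020 for BCL2 and 282152 for BCL2L1, and all 8 matched the bovine reference table under the same symbol.

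Mononuclear cells were isolated on a Percoll gradient from venous blood of female Canadian Holstein cows 6 days after immunization, with no further treatment of the cells. The labels class the cows by antibody response (Ab) and by cell-mediated response (DTH). The high-Ab group held 1 cow labelled high for both traits and high-Ab cows 2 and 3, set against low-Ab cows 1, 2 and 3. The high-DTH group held the same cow and high-DTH cows 2 and 3, set against low-DTH cows 1, 2 and 3. All cows had been immunized, so no unimmunized animals enter a comparison. The labels give no age and no animal identities, and a cow number that recurs under another label was read as another animal, which makes 11 cows. The 2 comparisons share the cow that is high for both traits.

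The 44 arrays were hybridised with amplified RNA of 1 cow each beside a shared standard RNA of the same cell type, in Alexa647 and Alexa555, with the dyes swapped between arrays. The deposited value is a log ratio per spot, read here as log2 of cow over standard. Neither the base nor the direction is stated, and all directions below would turn together under the opposite reading. Spots of a gene were averaged on each array, and the arrays of a cow were averaged within each dye and then over both dyes, which gave 1 ratio per cow. A ratio of 0 means the same amount as in the standard, so the ratios of 1 gene can be compared between cows, but they do not show which gene is more abundant. For the same reason, the labelled cell type could not be checked against the level of its markers.

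Tumour necrosis factor and its relatives are ligands that bind receptors on other cells. Receptors with a death domain, such as TNFRSF1A and FAS, can start apoptosis through caspases, whereas other receptors mainly signal survival and inflammation through NF-kB. BCL2 and BCL2L1 hold back the mitochondrial route to apoptosis, and lymphocyte survival after an immune response depends on the balance of these signals.

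Across the series, array medians lay between −0.08 and 0.07, and arrays of a cow with opposite dyes correlated at a mean r of 0.37 over 44 pairs. For low-Ab cow 1 (arrays 1 and 2) and low-DTH cow 3 (array 3) the sign of the arrays is unsettled. Against other cows these 3 arrays had a mean r of −0.23 to −0.20, and the other 41 arrays had at least 0.05. Values are given as deposited, and each comparison is given again with these 3 arrays turned. The 3 arrays were picked from these same values, so every p-value with them turned depends on that choice. For the 141 named genes, a typical SD (the median) was 0.13 over the spots of an array and 0.18 over the arrays of a cow. Spot intensities were not analysed here, so signal over background is unknown, and precision is set by how many arrays and cows there are.

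No difference between high and low responders passed the adjusted threshold for any of the 8 genes, which does not show that the groups were equal. In limma with Benjamini-Hochberg adjustment over all features, 0 of the 8 genes passed an adjusted p of 0.05 in the Ab or the DTH comparison, and 0 of 562 and 0 of 565 features passed (0% in each). Without adjustment, 37 features (6.58%) had p under 0.05 in the Ab comparison and 55 (9.73%) in the DTH comparison, none of them among the 8 genes. Turning the 3 arrays gave 54 (9.61%) and 69 (12.2%) such features, with LTB among those of the DTH comparison, and 0 features passed. For 3 cows a group, the smallest p an exact permutation test allows is 0.1. In the Ab comparison the median difference was 0.05 over the 8 genes and −0.0089 over the 141 named genes, with 6 of the 8 genes higher and 2 lower in high-Ab cows. In the DTH comparison it was −0.05 over the 8 genes and −0.03 over all named genes, with 3 higher and 5 lower in high-DTH cows. After the 3 arrays were turned, the medians were 0.07 over the 8 genes and −0.016 over all named genes (Ab), and −0.015 and −0.013 (DTH). The median size of the difference as deposited was 0.09 for the 8 genes and 0.07 for all named genes in the Ab comparison, and 0.10 and 0.09 in the DTH comparison. With the 3 arrays turned it was 0.11 and 0.09 (Ab), and 0.08 and 0.11 (DTH), so the order in the DTH comparison was reversed.

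**Figure D1:**
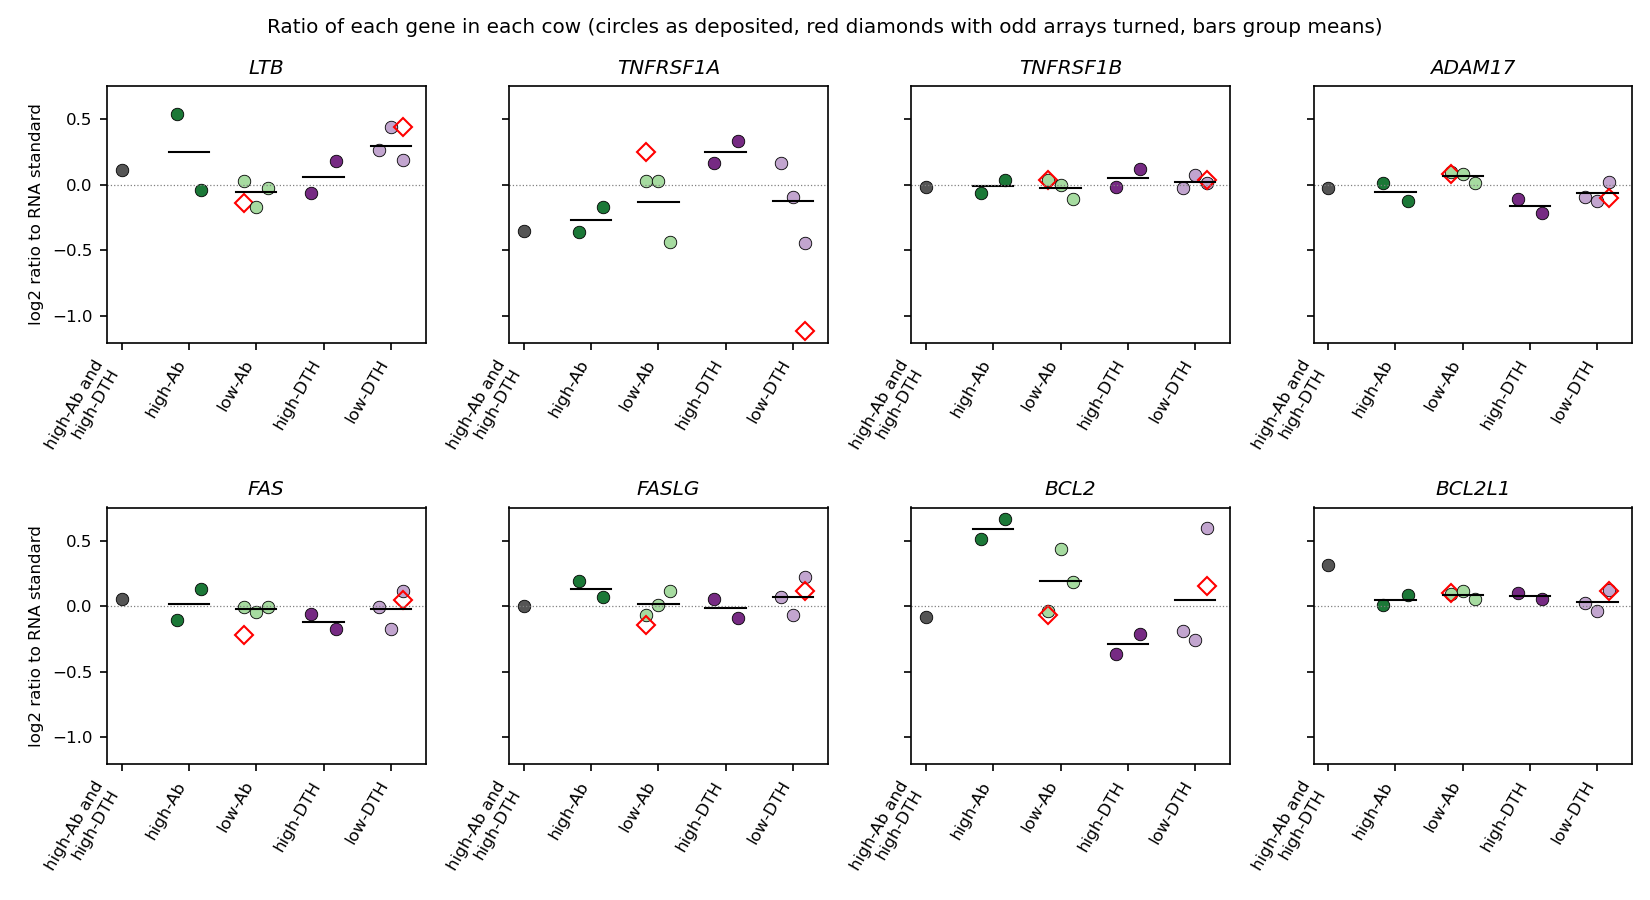
Log2 ratio to the RNA standard of each of the 8 genes (panels) in each cow, by label group. Circles are values as deposited, bars are means of the cows in a label group (the cow high for both traits stands alone), and red diamonds are values of low-Ab cow 1 and low-DTH cow 3 with the arrays of unsettled sign turned. BCL2 runs between −0.36 and 0.67 as deposited, while TNFRSF1B stays between −0.11 and 0.12.

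LTB encodes lymphotoxin beta, a membrane ligand of lymphocytes that anchors lymphotoxin alpha and signals through the lymphotoxin beta receptor. Its ratio was 0.11 in the cow high for both traits and 0.54 and −0.04 in high-Ab cows 2 and 3, against 0.03, −0.17 and −0.02 in low-Ab cows 1, 2 and 3. High-Ab cow 2 stood above all other cows, and the groups overlapped. LTB averaged 0.20 ± 0.30 in high-Ab cows and −0.05 ± 0.10 in low-Ab cows (SD, n = 3 each), a difference of 0.26 ± 0.17 (SE; limma adjusted p = 0.88). With the 3 arrays turned the difference was 0.31 ± 0.16 (adjusted p = 0.598), and without high-Ab cow 2 it was 0.09.

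In the other comparison, LTB was at 0.11 in the cow high for both traits and at −0.06 and 0.18 in high-DTH cows 2 and 3, against 0.26, 0.45 and 0.19 in low-DTH cows 1, 2 and 3. Every high-DTH cow lay below every low-DTH cow, though the nearest values of the 2 groups, 0.18 and 0.19, were almost equal. LTB was the only 1 of the 8 genes without overlap in this comparison, while 15.6% of named genes had none in either direction and 7.09% were lower without overlap. It averaged 0.08 ± 0.12 in high-DTH cows and 0.30 ± 0.13 in low-DTH cows (SD, n = 3 each), and the difference of −0.22 ± 0.11 did not pass (SE; limma adjusted p = 0.576). With the array of low-DTH cow 3 turned, that cow was at 0.44 and the difference was −0.31 ± 0.10 (limma p = 0.0212, adjusted p = 0.347), again without overlap, as for 19.1% of named genes and, lower, 12.1%. LTB also lay lower in low-Ab than in low-DTH cows without overlap, by −0.35 as deposited and −0.49 with the 3 arrays turned, where 13.5% and 24.1% of named genes did not overlap.

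The difference between the Ab and the DTH effect of LTB was 0.48 ± 0.20 (SE). Its limma p of 0.0444 was below 0.05 before adjustment, as for 10.2% of features, and the adjusted p was 0.476. The cow high for both traits enters both effects equally and cancels, so this contrast rests on the other cows. It takes in the difference between the low groups. LTB was lower in low-Ab than in low-DTH cows, by −0.35 as deposited and −0.49 with the 3 arrays turned. Of 561 features, 7 passed in this contrast (1.25%), and none of the 8 genes was among them. With the 3 arrays turned the LTB difference was 0.62 ± 0.19 (adjusted p = 0.13), the lowest adjusted p of any of the 8 genes in any setting tried, and 0 features passed, with 86 (15.3%) below 0.05 before adjustment.

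FASLG encodes the ligand of FAS, carried by activated T cells and natural killer cells. Its cow values lay between −0.09 in high-DTH cow 3 and 0.22 in low-DTH cow 3, and groups overlapped in both comparisons. The difference was 0.07 ± 0.10 between high-Ab and low-Ab cows (SE; limma adjusted p = 0.988) and −0.08 ± 0.11 between high-DTH and low-DTH cows (adjusted p = 0.826). FAS, the death receptor for this ligand, lay between −0.17 and 0.13 over the 11 cows. The difference of FAS was 0.05 ± 0.10 for Ab (limma adjusted p = 0.999) and −0.04 ± 0.11 for DTH (adjusted p = 0.912). With the arrays of low-Ab cow 1 turned, its FAS value was −0.22, the lowest of any cow, against −0.0032 as deposited, and the Ab difference of FAS was 0.12.

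TNFRSF1A encodes the widely expressed tumour necrosis factor receptor that carries a death domain. Its ratio was −0.35 in the cow high for both traits and −0.36 and −0.17 in high-Ab cows 2 and 3, against 0.03, 0.03 and −0.44 in low-Ab cows 1, 2 and 3. Low-Ab cow 3 lay below all high-Ab cows and the other low-Ab cows lay above them, so the groups overlapped. The means were −0.29 ± 0.11 in high-Ab cows and −0.13 ± 0.27 in low-Ab cows (SD, n = 3 each), with a difference of −0.17 ± 0.15 (SE; limma adjusted p = 0.938).

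High-DTH cows 2 and 3 had TNFRSF1A at 0.17 and 0.33, which with −0.35 in the cow high for both traits was set against 0.17, −0.09 and −0.44 in low-DTH cows 1, 2 and 3. The difference was 0.17 ± 0.23 (SE; limma adjusted p = 0.84), but 0.37 without the cow high for both traits and 0.012 without low-DTH cow 3. The cow high for both traits was far from the other high-DTH cows and close to high-Ab cow 2. The sign of TNFRSF1A held over the arrays of several cows. It was below 0 on 4 of 4 arrays of the cow high for both traits and on 8 of 8 arrays of high-Ab cows 2 and 3. On 9 of 9 arrays of high-DTH cows 2 and 3 it was above 0. Arrays of a cow are technical replicates, so this describes these cows and not the label groups. BCL2 was likewise above 0 on 8 of 8 arrays of high-Ab cows 2 and 3, and BCL2L1 on 4 of 4 arrays of the cow high for both traits. In low-DTH cow 3, arrays 1 and 2 gave −1.03 and −1.05 and the array of unsettled sign gave 1.34, so turning it moved the cow to −1.11 and the DTH difference to 0.40 ± 0.37 (adjusted p = 0.729).

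Without the cow high for both traits, TNFRSF1A was −0.27 in high-Ab cows and 0.25 in high-DTH cows, a difference of −0.52 between 2 cows and 2 cows. These groups did not overlap, nor did those of 48.2% of named genes, so this is a description without a test. BCL2 and FASLG were also without overlap between these cows, with BCL2 at 0.59 in high-Ab cows and −0.29 in high-DTH cows. The TNFRSF1A difference was −0.52 on arrays 1 and 2 and −0.50 on arrays 3 and above, and that of BCL2 was 0.34 and 1.37, where 41.8% and 45.7% of named genes did not overlap.

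TNFRSF1B encodes the second tumour necrosis factor receptor, which lacks a death domain and is found mainly on blood cells. It varied least of the 8 genes, with an SD over cows of 0.06, the 137th of 141 named genes, and lay between −0.11 in low-Ab cow 3 and 0.12 in high-DTH cow 3. Its difference was 0.0095 ± 0.090 between high-Ab and low-Ab cows and 0.0070 ± 0.088 between high-DTH and low-DTH cows (SE; limma adjusted p = 0.999 and 0.972). These p-values do not show that the groups were equal, only that a difference was not seen with an SE of this size.

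ADAM17 encodes the membrane protease that releases tumour necrosis factor and sheds both of its receptors. Its ratio was −0.03 in the cow high for both traits and 0.011 and −0.12 in high-Ab cows 2 and 3, against 0.10, 0.08 and 0.011 in low-Ab cows 1, 2 and 3. Every high-Ab cow lay below every low-Ab cow, but high-Ab cow 2 (0.0109) and low-Ab cow 3 (0.0110) were almost equal. ADAM17 was the only 1 of the 8 genes without overlap in the Ab comparison, where 10.6% of named genes had none and 5.67% were lower without overlap. The means were −0.05 ± 0.07 in high-Ab cows and 0.06 ± 0.05 in low-Ab cows (SD, n = 3 each), and the difference was −0.11 ± 0.09 (SE; limma adjusted p = 0.926). Turning the 3 arrays gave −0.11 ± 0.08 (adjusted p = 0.823), again without overlap, as for 14.9% of named genes and, lower, 7.8%. In the DTH comparison ADAM17 averaged −0.12 ± 0.09 in high-DTH cows and −0.06 ± 0.08 in low-DTH cows (SD, n = 3 each; difference −0.05, limma adjusted p = 0.868). Of 352 possible spot values of ADAM17, 8 were missing, and its spots had an SD above 0.4 on 6 arrays.

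BCL2 encodes the founding survival protein of its family, which protects naive and memory lymphocytes from apoptosis. It varied most of the 8 genes, with an SD over cows of 0.38, the 17th of 141. The ratio was −0.08 in the cow high for both traits and 0.51 and 0.67 in high-Ab cows 2 and 3, against −0.03, 0.44 and 0.18 in low-Ab cows 1, 2 and 3. The means were 0.37 ± 0.39 in high-Ab cows and 0.20 ± 0.24 in low-Ab cows (SD, n = 3 each), and the difference of 0.17 ± 0.22 lay within the spread between cows (SE; limma adjusted p = 0.972). It was 0.39 without the cow high for both traits and 0.018 without high-Ab cow 3.

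In high-DTH cows 2 and 3 BCL2 was −0.36 and −0.21, which with −0.08 in the cow high for both traits was set against −0.19, −0.26 and 0.60 in low-DTH cows 1, 2 and 3. The value of low-DTH cow 3 rests in part on its array of unsettled sign, and was 0.16 with that array turned. The difference between high-DTH and low-DTH cows was −0.27 ± 0.24 as deposited (SE; limma adjusted p = 0.778) and −0.12 ± 0.14 turned (adjusted p = 0.79). Over the 4 label groups without the cow high for both traits, the limma F-test for BCL2 gave F = 3.5 (p = 0.0659, adjusted p = 0.634), against 45 of 561 features (8.02%) with p under 0.05 and 0 passing. With the 3 arrays turned it gave F = 8.52 (p = 0.00700, adjusted p = 0.157), where 100 features (17.8%) had p under 0.05 and 0 passed.

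BCL2L1 encodes a BCL2 relative whose long form protects activated cells. It was above 0 in 10 of 11 cows, and the cow high for both traits was highest at 0.32, against −0.04 to 0.12 in the other 10 cows. Without that cow the high-DTH cows had 0.11 and 0.05. The difference was 0.05 ± 0.11 between high-Ab and low-Ab cows (SE; limma adjusted p = 0.999) and 0.12 ± 0.11 between high-DTH and low-DTH cows (adjusted p = 0.776).

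**Figure D2:**
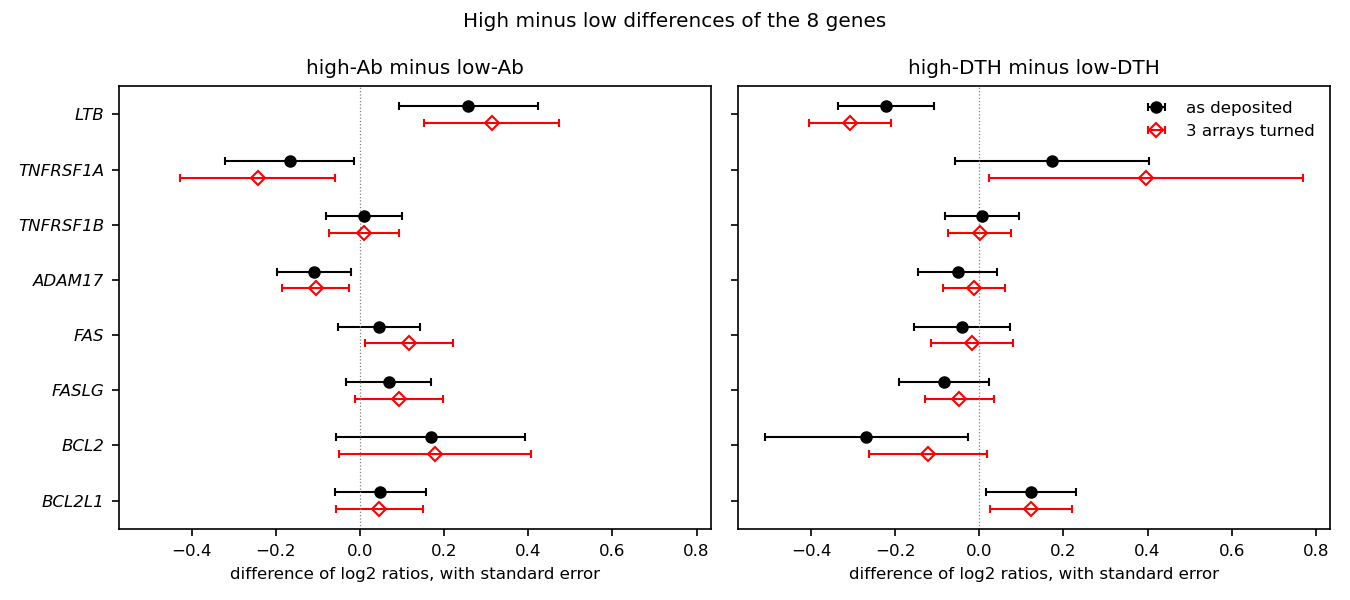
Difference of log2 ratios with its standard error for each of the 8 genes, high-Ab minus low-Ab cows on the left and high-DTH minus low-DTH cows on the right, 3 cows a group. Black circles are values as deposited and red diamonds have the 3 arrays of unsettled sign turned. LTB stands at 0.26 in the Ab comparison and −0.22 in the DTH comparison.

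With the 3 arrays turned, the Ab differences not yet given were −0.24 for TNFRSF1A, 0.0097 for TNFRSF1B, 0.09 for FASLG, 0.18 for BCL2 and 0.05 for BCL2L1. The DTH differences were 0.00067 for TNFRSF1B, −0.01 for ADAM17, −0.02 for FAS, −0.05 for FASLG and 0.12 for BCL2L1. All kept the direction they had as deposited.

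The arrays of a cow differed by their number in BCL2, ADAM17 and LTB, and in other named genes as well. This was examined after the values had been seen. The labels do not say what the array number stands for, and arrays 1 and 2 hold both dyes, as do arrays 3 and above in every cow but low-DTH cow 3. Leaving out low-Ab cow 1 and low-DTH cow 3, which have arrays of unsettled sign, BCL2 was −0.66 on arrays 3 and above and 0.23 on arrays 1 and 2 in the 5 cows classed for DTH. That is a difference of −0.89 ± 0.23 (SD, n = 5), below 0 in 5 of 5 cows and the 4th in size among 140 named genes. Over the named genes, the median size of such a difference was 0.14 in these DTH cows and 0.07 in the remaining Ab cows. In the 4 remaining Ab cows BCL2 was 0.63 on arrays 3 and above and 0.27 on arrays 1 and 2, a difference of 0.36 ± 0.29 (SD, n = 4) that was above 0 in 3 of 4 cows.

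ADAM17 shared the pattern in DTH cows, with −0.28 on arrays 3 and above and 0.07 on arrays 1 and 2 (difference −0.34 ± 0.11, SD, n = 5, below 0 in 5 of 5 cows, rank 30 of 140 in size). LTB ran the other way, with 0.35 on arrays 3 and above and 0.03 on arrays 1 and 2 (0.32 ± 0.27, SD, n = 5, above 0 in 5 of 5 cows, rank 34 of 140). On array 5 of high-DTH cow 2, however, LTB was −0.29, the lowest of the arrays of that cow. In Ab cows the set differences were 0.0049 ± 0.11 for ADAM17 and −0.05 ± 0.05 for LTB (SD, n = 4 each). Set differences did not overlap between DTH and Ab cows for these 3 of the 8 genes, and for 30 of 140 named genes (21.4%). This rests on counting the cow high for both traits with the DTH cows, where its set differences were −0.86 for BCL2, −0.18 for ADAM17 and 0.25 for LTB. With that cow left out the same 3 genes did not overlap, as for 25% of named genes, and with it counted as a high-Ab cow ADAM17 alone of the 8 genes did not, as for 6.43%.

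**Figure D3:**
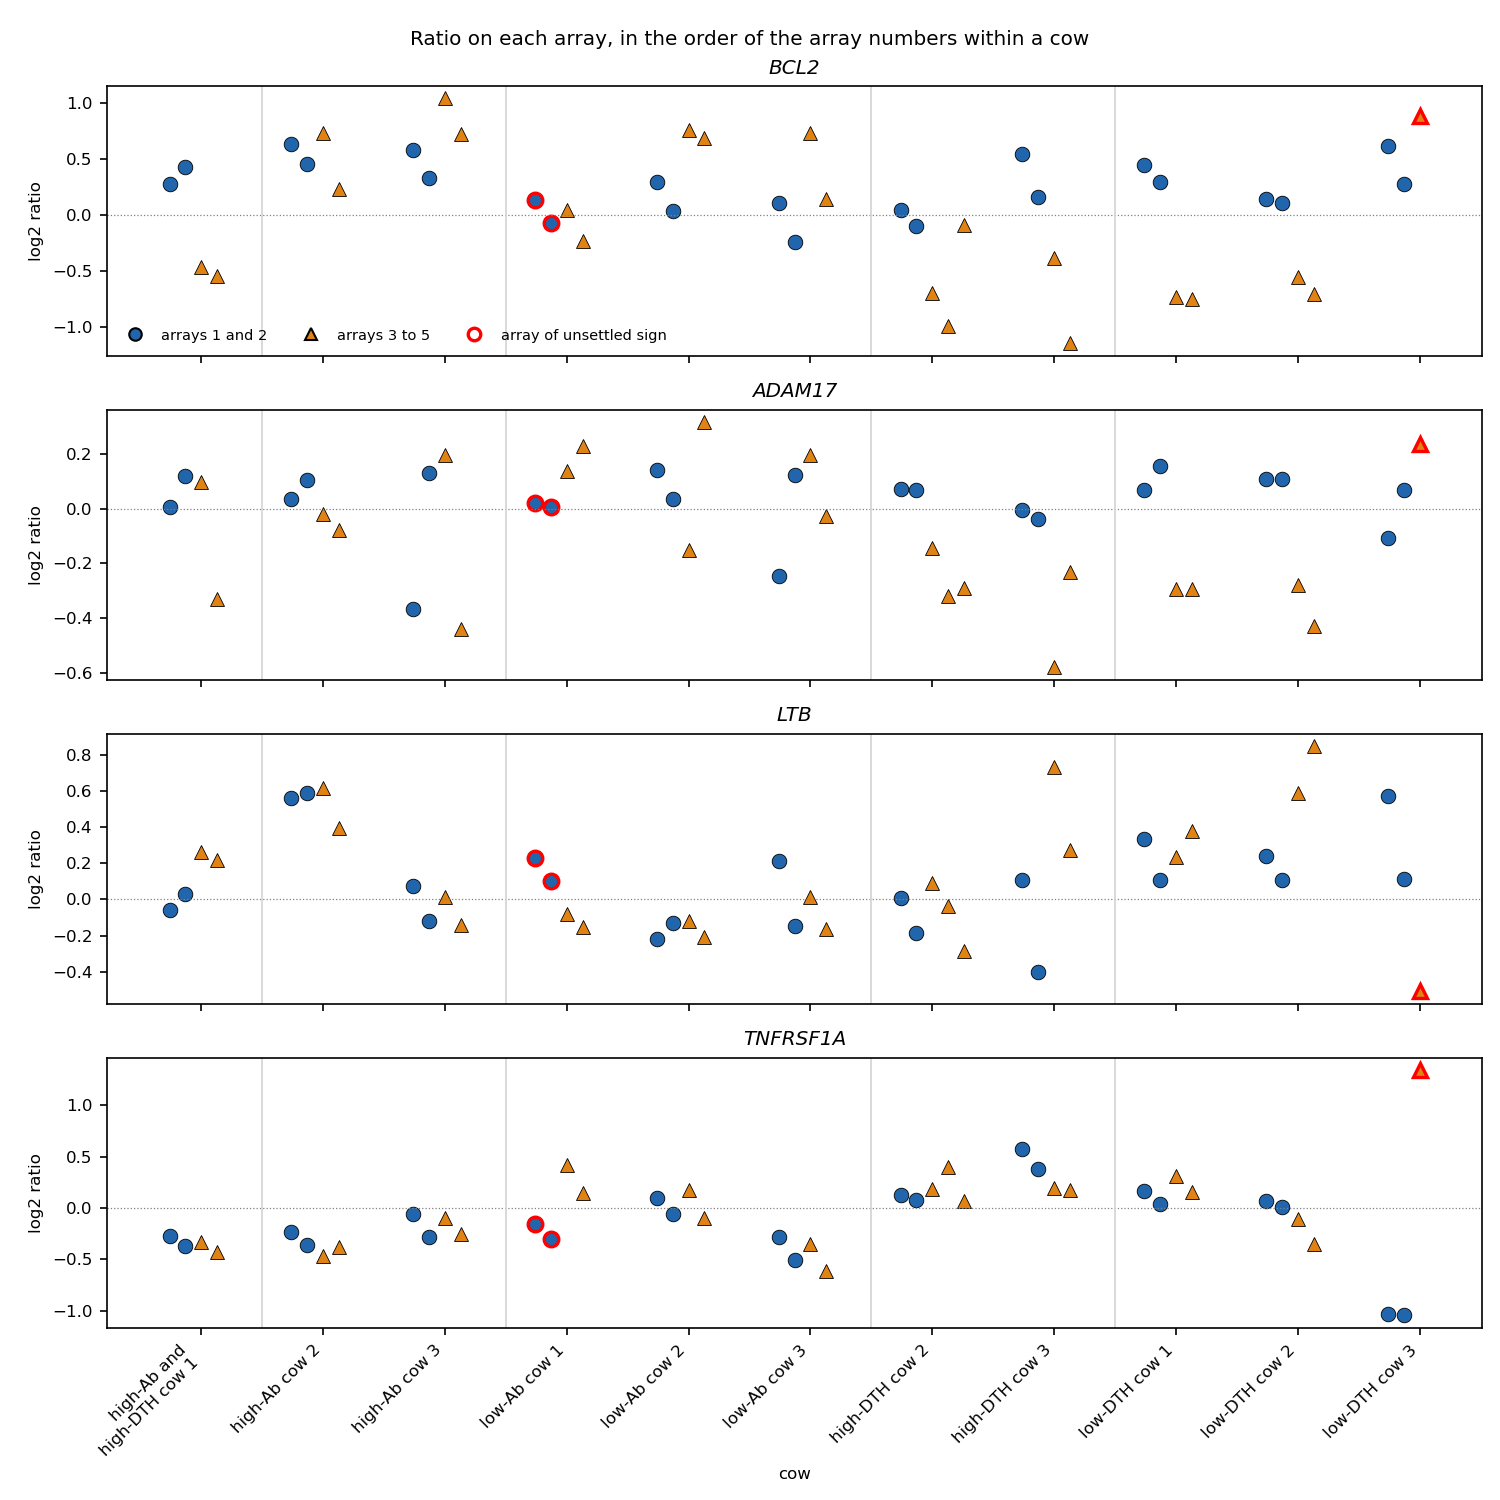
Log2 ratio on each array for BCL2, ADAM17, LTB and TNFRSF1A (panels), with the arrays of each cow in the order of their numbers. Blue circles are arrays 1 and 2, orange triangles are arrays 3 to 5, and red outlines mark the 3 arrays of unsettled sign. The mean of BCL2 is lower on arrays 3 and above in the 5 DTH cows without an array of unsettled sign. Array 5 of high-DTH cow 2, at −0.10, is not below array 2 of that cow. In low-DTH cow 3 as plotted, BCL2 is 0.88 on array 3 and 0.45 on arrays 1 and 2. TNFRSF1A keeps its sign over all 4 arrays of the cow high for both traits.

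Within 1 set of arrays, BCL2, LTB and ADAM17 were without overlap in some comparisons, as were the shares of named genes given beside them. The sets were examined after the values had been seen. On arrays 1 and 2, BCL2 was 0.45 ± 0.10 in high-Ab cows and 0.04 ± 0.12 in low-Ab cows (SD, n = 3 each), without overlap. The same held for 9.29% of named genes as deposited and 11.4% with the arrays turned. On arrays 3 and above the high-Ab and low-Ab cows overlapped for BCL2, with a difference of −0.07. On arrays 3 and above, LTB was higher (0.23 in high-Ab cows and −0.12 in low-Ab cows) and ADAM17 lower (−0.09 in high-Ab cows and 0.12 in low-Ab cows), both without overlap, as for 10% of named genes. On arrays 1 and 2 the Ab groups overlapped for both genes. The differences there were 0.17 for LTB and −0.0077 for ADAM17 as deposited, and 0.28 and 0.00083 with the arrays turned. LTB separated high-DTH from low-DTH cows on arrays 1 and 2 (−0.08 ± 0.07 and 0.25 ± 0.09, SD, n = 3 each), where 16.4% of named genes did not overlap. On arrays 3 and above none of the 8 genes separated these cows, against 7.14% of named genes as deposited and 15.7% with the arrays turned, and the LTB difference was 0.065 as deposited and −0.27 turned, since low-DTH cow 3 has only its array of unsettled sign there.

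The low groups of the 2 traits also differed by set. On arrays 1 and 2, LTB was 0.0081 in low-Ab cows and 0.25 in low-DTH cows without overlap, as for 11.4% of named genes and, with the arrays turned, 14.3%. On arrays 3 and above as deposited, BCL2L1 alone of the 8 genes did not overlap (0.19 in low-Ab cows and 0.0057 in low-DTH cows), as for 11.4% of named genes. With the arrays turned, BCL2 was 0.35 in low-Ab cows and −0.75 in low-DTH cows, and LTB, ADAM17 and BCL2L1 did not overlap either, where 39.3% of named genes did not.

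The ratios of some of these genes differed with the dye in which the cow was labelled. The difference of Alexa647 minus Alexa555 arrays within a cow was 0.21 ± 0.19 for BCL2 and 0.17 ± 0.20 for TNFRSF1B, above 0 in 10 of 11 cows each (SD, n = 11). It was −0.20 ± 0.17 for FAS and −0.16 ± 0.13 for BCL2L1, above 0 in 1 of 11 cows each. LTB, at 0.19 ± 0.25, was above 0 in 8 cows. A sign shared by at least 10 of 11 cows was seen for 4 of the 8 genes and for 37 of 141 named genes (26.2%). The cow values weigh both dyes equally.

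**Figure D4:**
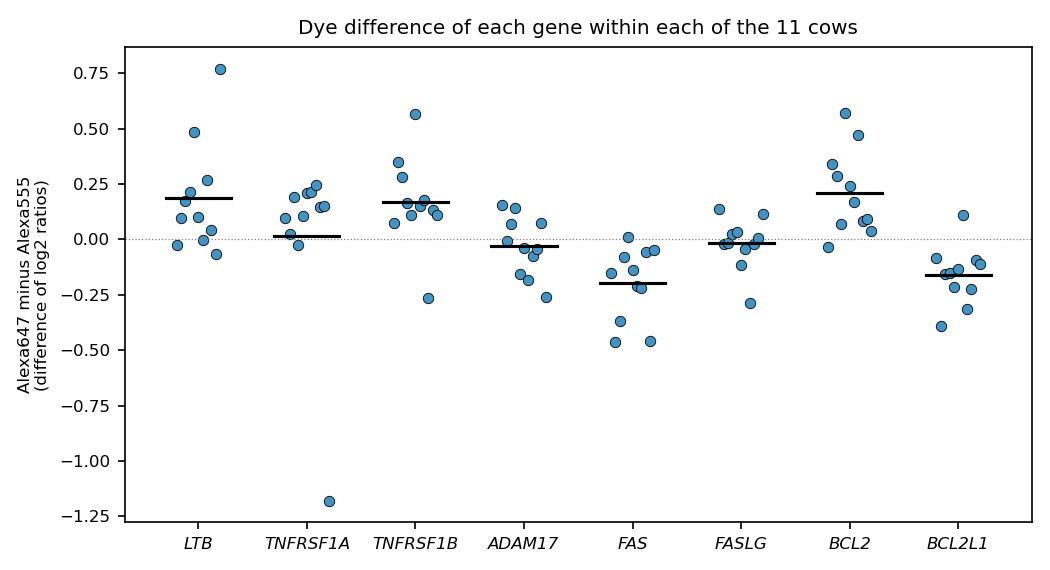
Difference of log2 ratios between arrays with the cow in Alexa647 and in Alexa555, for each of the 8 genes; each point is 1 of 11 cows and the bar is their mean. BCL2 and TNFRSF1B lie above 0 in 10 cows, and FAS and BCL2L1 in 1 cow.

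Markers of blood cell types were set beside these genes, since in a mixed sample fewer cells of a type and less RNA per cell cannot be told apart. Of 6 measured T cell markers, 5 were higher in high-Ab than in low-Ab cows (median difference 0.47) and 6 were higher in high-DTH than in low-DTH cows (median 0.34), and none passed. The mean ratio of the 6 markers was 0.72 in the cow high for both traits, 0.37 to 0.43 in high-Ab cows 2 and 3 and −0.05 to 0.22 in low-Ab cows, and it was 0.42 to 0.53 in high-DTH cows 2 and 3 and 0.02 to 0.40 in low-DTH cows. All 4 measured B cell markers were lower in high-DTH than in low-DTH cows (median −0.28), and none passed. Their mean was −0.44 in the cow high for both traits, −0.17 to 0.06 in high-DTH cows 2 and 3 and −0.03 to 0.53 in low-DTH cows. In the Ab comparison 1 B cell marker was higher and 3 were lower (median −0.04, but 0.01 with the 3 arrays turned). All 3 monocyte markers were lower in high-Ab cows (median −0.05), while 2 were higher and 1 lower in high-DTH cows (median 0.09). Both natural killer cell markers were lower in the Ab and the DTH comparison (median −0.19 and −0.14). The 2 neutrophil markers had medians of −0.53 and −0.0059 but lay apart in the Ab comparison, with LTF at −1.04 and CXCR2 at −0.015. In the DTH comparison LTF was at −0.04 and CXCR2 at 0.03. CD163L1, the only measured marker of gamma delta T cells, differed by 0.76 (Ab) and 0.45 (DTH), and no marker passed. The part of cell makeup in the values of LTB and the other genes was not tested.

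Other genes of the pathway were few on this array. Of 55 listed ligands, receptors, adaptors, caspases and BCL2 relatives beyond the 8 genes, 7 were measured: CASP1, CASP4, CD27, CD40, CD40LG, NFKB1 and NFKB2. None passed in either comparison. In the Ab comparison 2 were higher and 5 lower, with a median of −0.03 and a range of −0.17 to 0.07, against a median of −0.0089 over all named genes. In the DTH comparison 1 was higher and 6 lower, with a median of −0.10 and a range of −0.30 to 0.0064, against −0.03 over all named genes. CD40, the costimulatory receptor of B cells and also on the B cell marker list, had no overlap, as for 15.6% of named genes and, lower, 7.09%: −0.23 ± 0.12 in high-DTH cows and 0.07 ± 0.17 in low-DTH cows (SD, n = 3 each; difference −0.30, limma adjusted p = 0.505). After turning the arrays the CD40 difference was −0.38 (adjusted p = 0.347), again without overlap, as for 19.1% of named genes. Turned, NFKB1, a subunit of NF-kB, was also lower without overlap in high-DTH cows (−0.11), and CD40LG, the ligand of CD40, in high-Ab cows (−0.028), where 14.9% of named genes had no overlap. The medians of the 7 genes were then −0.02 (Ab) and −0.05 (DTH).

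Across the 11 cows, the named gene whose ratio was most like each of the 8 genes was read from Pearson's r of the values as deposited. This is a description over cows that share dyes, array sets and 1 standard. Each r was picked as the highest among the named genes, so its size is no test. BCL2 was closest to IL2, a growth factor of T cells (r = 0.92, and 0.90 with the 3 arrays turned), with r of 0.58 on arrays 1 and 2 and 0.98 on arrays 3 and above, and then to TXLNA (r = 0.80). LTB was closest to PSMB8, a subunit of the immunoproteasome (r = 0.78, and 0.89 and 0.90 on the 2 sets of arrays), then to PSMC5 (r = 0.72). In DTH cows without an array of unsettled sign, IL2 was also lower on arrays 3 and above (−0.24, 5 of 5 cows). PSMB8 was higher there (0.57, 5 of 5 cows), as LTB was. The part of the array sets in these r was not tested. TNFRSF1A was closest to IL10 (r = 0.86), an inhibitory cytokine, and LOC407171 (r = 0.86). With LOC407171, r was 0.34 on arrays 3 and above. With the arrays turned it was 0.67, and LOC407171 ranked 10 in likeness.

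TNFRSF1B was nearest to SLC11A1, a metal transporter of phagocytes (r = 0.75, but 0.12 on arrays 3 and above). LOC407171 came next (r = 0.72, but 0.33 on arrays 1 and 2 and 0.27 on arrays 3 and above). ADAM17 was nearest to CD44 and IL12A (r = 0.68 and 0.67), each with r at most 0.24 on arrays 1 and 2. With the arrays turned, CD44 ranked 6 and IL12A ranked 5. FAS was nearest to IGF1 (r = 0.76, but 0.35 with the arrays turned and −0.57 on arrays 1 and 2) and IFNAC (r = 0.74, but 0.24 on arrays 1 and 2). FASLG was nearest to GHR and SOD1 (r = 0.87 and 0.86, but 0.27 and 0.32 on arrays 1 and 2). BCL2L1 was nearest to CCR3 and CD5 (r = 0.87 and 0.80, but 0.52 and 0.22 on arrays 3 and above). Among the 8 genes themselves, FASLG had r = −0.65 with TNFRSF1A and −0.64 with TNFRSF1B (−0.60 and −0.69 with the 3 arrays turned), while FAS and FASLG had r = 0.47 and BCL2 and BCL2L1 had r = 0.05.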

How the data were processed

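Values were the log2 ratios deposited by the authors in 1 table of 1680 spots and 44 arrays. Background correction, normalization, log base and direction are unstated (not given in the sources used here), and log2 and cow over standard are a reading of the values. Per the labels' protocols, RNA was amplified and labelled with Alexa dyes. The platform annotation named 1224 spots with 1 symbol, and 16 spots with several symbols were not named. A bacterial control gene was set aside.

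Cows were the replicates, as arrays of a cow are technical. Differences were tested in R 4.3.3 with limma 3.58.1 (lmFit and eBayes) with Benjamini-Hochberg adjustment over all features with a value in both dyes of every cow, at a threshold of 0.05. The contrasts were high against low Ab, high against low DTH, the difference between both effects, and an F-test over 4 groups. The script was tested on simulated data. The 8 genes and the lists of pathway genes and cell markers were chosen with earlier results of these data known. Named beyond the 8 genes were the 2 genes most like each by r, pathway genes without overlap between groups, and markers. Columns of other samples in the table numbered 0. Alternatives, such as turning 3 arrays, either dye, either set of arrays, and leaving out each cow, are given after the report.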

Additional observations from a re-analysis of the deposited data

Results flagged for a closer look

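Of 80 pairs of a gene and a cow with 4 or 5 arrays, 1 held an array far from the others. On array 4 of high-DTH cow 2, TNFRSF1B was −0.353, against 0.0029 to 0.098 on the other arrays of that cow. Chance is expected to mark about 5% of such pairs.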

How the results depend on the processing

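No result of the 8 genes passed an adjusted p of 0.05 under any of 12 alternatives or on leaving out any of the 11 cows, and the lowest adjusted p was 0.13 (limma, LTB, difference between both effects, 3 arrays turned). Of 456 such values, 40 changed sign, and the cause was not tested.

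The count of features called was 14 (Ab), 7 (DTH), 2 (difference of effects) and 14 (4 groups) with arrays as the unit and a fitted correlation within a cow. In the difference of effects it was 4 with a plain mean over arrays and 0 with the 3 arrays turned or left out, with quantile normalization, with either dye alone and with either set of arrays. Leaving out 1 cow gave 0 to 1 calls for Ab (1 without the cow high for both traits), 0 for DTH, 0 to 7 for the difference of effects and 0 to 1 for the 4 groups (1 without high-DTH cow 3).

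With the 3 arrays left out, TNFRSF1B was −0.0035 (Ab) and −0.010 (difference of effects), and −0.025 (difference of effects) with quantile normalization. With the median over spots TNFRSF1B was −0.035 (DTH). With Alexa647 alone, the Ab differences were −0.022 for TNFRSF1B, −0.025 for FAS and −0.00089 for BCL2L1, the DTH differences 0.0096 for ADAM17 and 0.015 for FAS, and the differences of effects −0.091 for TNFRSF1B and −0.040 for FAS. With Alexa555 alone, FASLG was −0.023 (Ab), TNFRSF1A −0.0040 and TNFRSF1B −0.055 (DTH). On arrays 1 and 2, FAS was −0.051 (Ab), TNFRSF1B −0.019 (DTH), and ADAM17 0.022, FAS −0.044 and BCL2L1 0.0012 (difference of effects).

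On arrays 3 and above, where low-DTH cow 3 has only its array of unsettled sign, TNFRSF1B was −0.031, BCL2 −0.070 and BCL2L1 −0.039 (Ab), LTB 0.065 and TNFRSF1A −0.44 (DTH), and TNFRSF1A 0.17 and TNFRSF1B −0.095 (difference of effects). With that array turned, LTB was −0.27 and TNFRSF1A 0.45 (DTH), the direction they had over all arrays. Leaving out each cow gave ranges that crossed 0 for TNFRSF1B (−0.033 to 0.041 Ab, −0.040 to 0.033 DTH, −0.040 to 0.049 difference of effects), FAS (−0.0082 to 0.11 Ab, −0.12 to 0.028 DTH), BCL2L1 (−0.041 to 0.11 Ab) and BCL2 (−0.42 to 0.0046 DTH, above 0 without low-DTH cow 3). It also gave wide ranges for BCL2 (0.018 to 0.39 Ab), LTB (0.089 to 0.38 Ab) and TNFRSF1A (−0.32 to −0.090 Ab, 0.012 to 0.37 DTH).

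Cow numbers were not used to pair the samples in the main fits. In deviations from the group means, same-numbered cows had r of −0.08, −0.27 and −0.09 (Ab) and −0.24, −0.56 and −0.59 (DTH). Cows of different number had r of −0.09 to 0.18 (Ab) and −0.13 to 0.55 (DTH). Deviations of 3 cows sum to 0 within a group, so these r do not settle whether the numbers pair cows. With cow number as a replicate block, 0 features were called in either comparison. The differences themselves, for example −0.22 for LTB (DTH), cannot change in that fit. Each number occurs once in the high and once in the low group, so their equality is no check.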
